A study of Mus musculus with 28 samples.

Results

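Transcript levels of the Wnt pathway's signals, receptors, secreted antagonists and feedback targets were examined across the mouse germ line. The genes were chosen by name alone: the Wnt ligands, the frizzled receptors (Fzd), the secreted frizzled-related proteins (Sfrp), the dickkopf proteins (Dkk), the coreceptors Lrp5 and Lrp6, and Axin2, Lef1, Tcf7, Sp5 and Nkd1. Of 44 such symbols in the RefSeq gene table, 38 had a probe, out of 13023 named genes and 30392 genes or unnamed features in all. The 38 were 17 ligands, 7 frizzled receptors, 2 coreceptors, 4 Sfrp genes, 3 Dkk genes and 5 nuclear factors or targets. Dkk1, Fzd1, Fzd5, Fzd9, Wnt5b and Wnt7a were not analysed here. The brightest probe stood for each gene, and only Sfrp1 with 3 probes and Wnt5a with 2 had a choice.

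The series measured RNA on 28 one-colour Agilent arrays in 14 groups of 2 arrays. Primordial germ cells (PGC), from which eggs and sperm later form, came from females and males at embryonic day 10.5, 13.5 and 17.5 (E10.5, E13.5, E17.5) of strain BDF1 x TgN(deGFP)18Imeg, so every PGC group carries a deGFP transgene. Oogonia and spermatogonia came from BDF1 x Tg(Mvh-Venus)1Rbrc. Embryonic germ (EG) cells, pluripotent lines grown from PGC, were female and male Rb(X.2)2Ad X 129/Sv lines whose source is given as PGC of day 12.5. The embryonic stem (ES) lines were no5 (female, 129/Sv) and TMA5 (male, an F1 of TgN (deGFP)20Imeg with MSM/Ms), so sex and strain differ together. Germline stem (GS) cells, cultured from the male germ line, were DBA/2, and whole adult testis was C57BL/6J. The ages of the oogonia and spermatogonia, the sorting of cells and any feeder layer are not given in the sources used here, nor is it said whether a group's 2 arrays hold different animals or cultures, so every p-value measures only the spread between arrays, which may be technical. In such bulk RNA, a larger share of cells of one type and more RNA per cell cannot be told apart.

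Wnt ligands are secreted lipid-modified proteins that bind a frizzled receptor together with Lrp5 or Lrp6. Binding stops the destruction of beta-catenin, which then enters the nucleus and activates genes together with the DNA-binding factors Tcf7 and Lef1. Sfrp proteins bind ligands outside the cell, several but not all Dkk proteins bind the coreceptors, and Axin2, Nkd1 and Sp5 are feedback genes that the pathway itself switches on in many tissues. Frizzled receptors also act without beta-catenin, in planar cell polarity. In the gonad, Wnt4 is known for ovary development, and in ES cells added Wnt activity is known to favour self-renewal.

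The promoters of 5 genes on which the results below turn are shown first: 250 bases before the transcription start, 5′ to 3′ on the plus strand, from RefSeq's table for GRCm38.p6, with any copy of CTTTGAT or its complement ATCAAAG (the core sequence bound by Tcf and Lef factors, searched on both strands) in capitals. The windows are chr2:70474673-70474922 (Sp5), chr7:98834862-98835111 (Wnt11, 1 of 2 starts), chr8:88527383-88527632 (Nkd1), chr11:103773925-103774174 (Wnt3) and chr3:131110047-131110296 (Lef1, 1 of 4 starts).
Sp5: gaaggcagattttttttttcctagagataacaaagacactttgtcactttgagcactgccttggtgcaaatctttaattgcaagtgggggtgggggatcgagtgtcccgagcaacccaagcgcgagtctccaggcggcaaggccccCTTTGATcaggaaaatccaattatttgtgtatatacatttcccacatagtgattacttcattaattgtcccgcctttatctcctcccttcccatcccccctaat
Wnt11: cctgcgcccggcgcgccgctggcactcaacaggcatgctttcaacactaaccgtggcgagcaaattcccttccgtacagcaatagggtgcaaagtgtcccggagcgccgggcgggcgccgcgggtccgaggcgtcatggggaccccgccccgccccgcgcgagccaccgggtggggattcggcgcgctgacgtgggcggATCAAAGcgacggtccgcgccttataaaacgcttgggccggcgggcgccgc
Nkd1: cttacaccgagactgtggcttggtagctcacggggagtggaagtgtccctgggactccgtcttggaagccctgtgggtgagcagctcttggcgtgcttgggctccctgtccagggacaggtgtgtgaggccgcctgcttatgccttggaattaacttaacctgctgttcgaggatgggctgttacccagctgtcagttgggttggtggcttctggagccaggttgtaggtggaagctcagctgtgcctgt
Wnt3: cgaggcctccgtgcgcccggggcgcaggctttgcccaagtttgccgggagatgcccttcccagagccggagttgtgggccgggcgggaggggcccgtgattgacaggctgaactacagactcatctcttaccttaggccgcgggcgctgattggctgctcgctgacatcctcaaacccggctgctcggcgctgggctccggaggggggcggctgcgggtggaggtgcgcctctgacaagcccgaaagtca
Lef1: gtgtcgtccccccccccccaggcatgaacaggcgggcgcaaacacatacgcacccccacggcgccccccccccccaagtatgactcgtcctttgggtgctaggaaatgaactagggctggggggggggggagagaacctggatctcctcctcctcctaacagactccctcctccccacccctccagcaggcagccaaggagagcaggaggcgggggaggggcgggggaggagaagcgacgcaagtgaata
Sp5 holds 1 copy, 104 to 98 bases before its start, and Wnt11 holds 1 copy, 51 to 45 bases before its start. The other 3 windows hold none. The table had 29 windows for 24 of the 38 genes, and these 2 were the only ones with the motif (6.90%), against 1053 of all 32851 windows (3.21%). A match describes these letters only. The windows for Wnt genes held a median of 17 CpG dinucleotides, against 6 over all windows. Sp5 and Nkd1 held 6 each, Lef1 11, Wnt3 22 and Wnt11 37.

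A level is given here as log2 of a probe's processed signal over the array's own 75th percentile, so 0 is a bright gene and each unit is a doubling. Agilent's flag for a spot well above background was used to say whether a gene was measured. Between 17.8% and 76.7% of probes carried that flag on an array, and the lowest flagged level ranged from -10.72 to -3.58, so the dimmest arrays give only weak upper bounds. The dimmest were the replicate 1 arrays of both E10.5 groups. All 6 germ cell markers (Ddx4, Dazl, Dppa3, Mael, Tex101 and Pou5f1) were well above background on both arrays of every group except E10.5 males (5 of 6) and testis (5 of 6, without Dppa3). Differences were tested with limma over all genes, and a gene was called at a Benjamini-Hochberg adjusted p under 0.05. Where one side was never above background, the difference is given as a bound against that array's lowest flagged level ("at least"), and the plain log2 difference beside it is then no measure of size. A gene was tested where both arrays of at least 1 compared group were well above background, so a gene that passed through its bright side alone tends to differ by construction, and counts of calls are given with that number and support no statement about the genes as a set. Where a side was measured on some of its arrays, the difference rests partly on values that were not above background.

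Few Wnt genes were measured in young germ cells and most were measured in cultured cells and testis. On both arrays of a group, 3 of 38 were well above background in E10.5 males (7.89%, against 31.5% of all named genes) and 5 in E10.5 females (13.2%, against 40.7%). The number was 17 in E13.5 females, 12 in E13.5 males, 9 in E17.5 females, 19 in E17.5 males, 16 in oogonia and 18 in spermatogonia. It was 25 in EG females, 29 in EG males, 31 in ES females, 20 in ES males, 31 in GS cells and 29 in testis. In all 8 PGC, oogonia and spermatogonia groups the share of Wnt genes was below the share of named genes, as it was in EG females (65.8% against 71.9%), ES males (52.6% against 63.3%) and testis (76.3% against 85.2%). It was above it in EG males (76.3% against 73.5%) and ES females (81.6% against 76%), and level with it in GS cells (81.6% against 81.4%).

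Dkk4, Wnt2b and Wnt9b were not well above background on both arrays of any group. Wnt1, the founding ligand of the family, was above background in testis alone, at -7.15 and -6.59. Wnt8b was above it on both arrays of testis alone and Wnt16 of GS cells alone. Wnt10b was above it on both arrays of ES females, GS cells and testis, and Wnt2 of GS cells and testis. Sfrp1, by contrast, was well above background on all 28 arrays, and Nkd1 and Wnt6 on 27. The heat map of group means shows this spread.

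**Figure D1:**
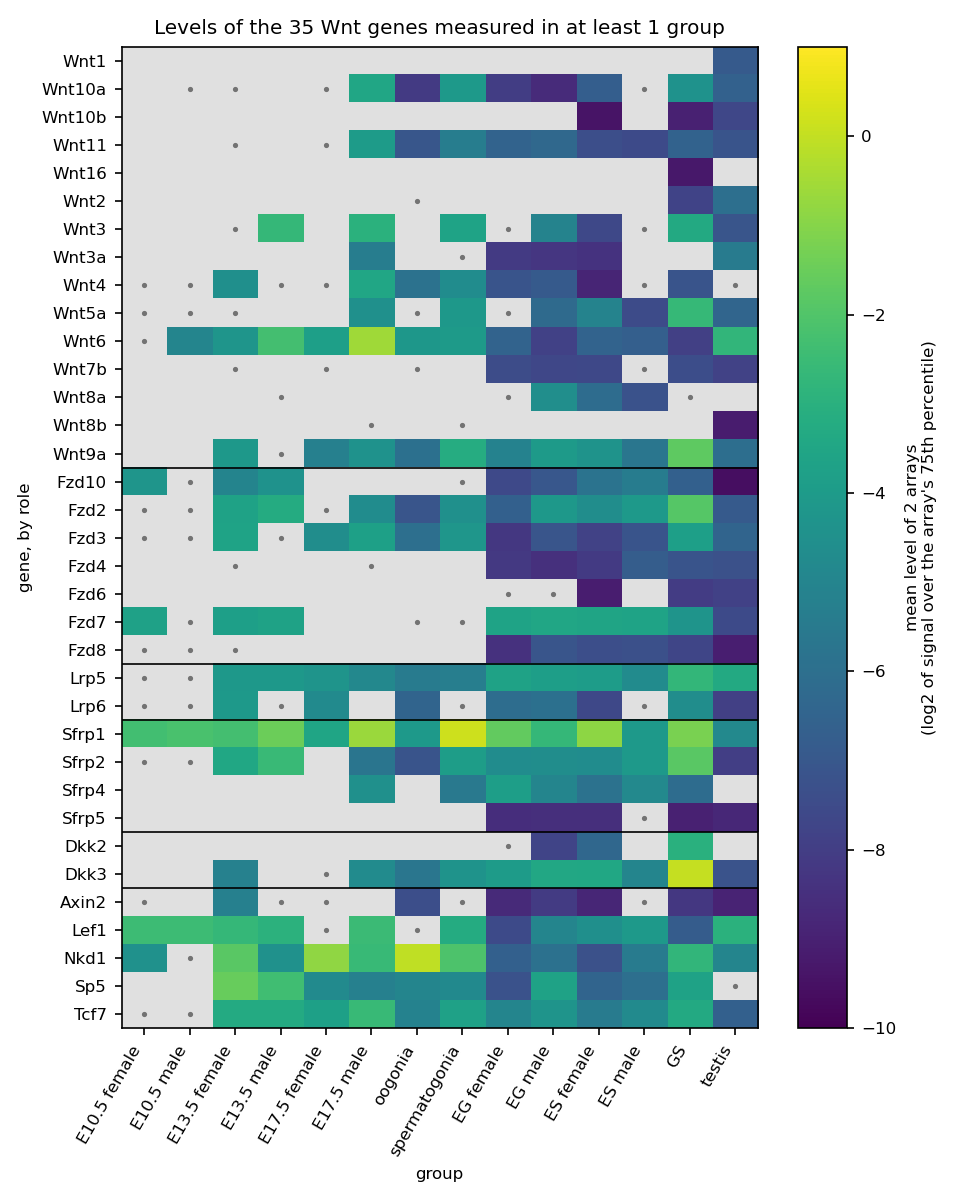
Mean level of 2 arrays (log2 of signal over the array's 75th percentile, colour) for the 35 Wnt genes measured in at least 1 group, in rows by role, across 14 groups in columns. Grey cells were not well above background on both arrays, and a dot marks 1 of 2 arrays; the 2 E10.5 columns are nearly all grey, while ES females and GS cells have 31 measured genes each.

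Some ligand genes lie side by side in the RefSeq table: Wnt3 and Wnt9b, and Wnt3a and Wnt9a, on chromosome 11, and Wnt1 and Wnt10b on chromosome 15. Testis was the group in which both Wnt1 and Wnt10b were measured on both arrays. Wnt6 and Wnt10a on chromosome 1, with the 2 predicted genes Gm29539 and Gm32099 between them, each had their highest group mean in E17.5 males. The other neighbours did not match: Wnt3a was highest in E17.5 males and Wnt9a in GS cells. Wnt3 was highest in E13.5 males, and Wnt9b was above background on no array.

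From E10.5 to E13.5, the period in which PGC settle in the gonad, Sp5, Fzd2, Sfrp2 and Tcf7 were among 11 of the 18 Wnt genes tested that rose (mean of both sexes), where 21.9% of all genes tested rose and 10.9% fell. Of the 18, 12 passed the filter through E13.5 alone, 9 of them called, and 6 were measured on both sides, of which 2 (Nkd1 and Wnt6) were called. Wnt5a failed the filter, so no compared group was measured on both arrays. It was above background on neither E13.5 male array, and its E10.5 male replicate 1 value lies under that array's lowest flagged level (-3.58). With no filter on dim probes 10 rose and 1, Wnt5a, fell (-2.47, adjusted p = 0.0466), going from -4.89 and -6.26 in E10.5 females and -4.33 and -5.89 in E10.5 males to -8.46 and -7.82 in E13.5 females and -7.73 and -7.24 in E13.5 males. This count was 11 without the 2 dimmest E10.5 arrays, but with normexp background correction it was 1 and with slide as a fixed block it was 0 (8 at an unadjusted p under 0.05). Over all 11578 genes tested, the last 2 runs called 1262 and 0, against 3787 in the main run.

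Sp5, a zinc finger repressor that is a direct beta-catenin target, had the largest difference. It was not above background on any of 4 E10.5 arrays, and at E13.5 it stood at -1.60 and -1.52 in females and -2.63 and -2.07 in males. That is at least 14.5-fold higher (log2 5.70 ± 0.77 SE, limma adjusted p = 5.26e-05, or 0.00825 with the replicate number as a block). The 4 E13.5 arrays were all above the 4 E10.5 values.

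Fzd2, Fzd3, Lrp5, Lrp6, Sfrp2 and Tcf7 were above background on 2 of 4 E10.5 arrays each, and their replicate 1 values at E10.5 lie under the lowest level of a probe well above background on those arrays (-4.89 in females and -3.58 in males). Among receptors, Fzd2 was at -6.17 and -5.79 in E10.5 females and -5.85 and -5.63 in E10.5 males, and at -3.41 and -3.92 in E13.5 females and -3.17 and -3.27 in E13.5 males. The values as listed did not overlap, and the difference was 2.42 ± 0.26 (adjusted p = 6.03e-06). Fzd3, a receptor best known from planar polarity, averaged 1.27 ± 0.32 higher (adjusted p = 0.00671, or 0.0812 with the replicate block), but its E13.5 male arrays (-5.02 and -5.84) overlapped the E10.5 arrays (-6.67 to -5.05). The coreceptor Lrp5 was at -5.82 and -4.52 in E10.5 females and -5.80 and -5.02 in E10.5 males, and at -4.25 and -3.99 in E13.5 females and -4.82 and -3.48 in E13.5 males (1.16 ± 0.39, adjusted p = 0.0336), with overlap. Lrp6 was at -6.64 and -5.51, and -5.54 and -6.06, and then at -4.32 and -3.75, and -5.27 and -5.10 in the same order of groups (1.33 ± 0.32, adjusted p = 0.00495), without overlap. With normexp correction Fzd3, Lrp5, Lrp6 and Wnt9a changed sign (-0.22, -0.23, -0.37 and -0.11). The call for Lrp5 was lost without either female E13.5 array (replicates 1 and 2), and without replicate 1 of E10.5 females, replicate 1 of E10.5 males or replicate 2 of E13.5 males. Fzd7 and Fzd10 were measured on both arrays of E10.5 females, at -4.57 to -3.07, and were not called. On replicate 1 of the E10.5 males neither was above background (-5.67 and -4.70).

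Of the ligands, Wnt6 rose by 2.61 ± 0.64 (adjusted p = 0.00526, or 0.0719 with the replicate block), with E10.5 female arrays at -6.92 and -6.66, E10.5 males at -3.01 and -7.01, E13.5 females at -4.21 and -4.33 and E13.5 males at -1.80 and -2.81. Replicate 1 of the E10.5 males stood apart from the other 3 E10.5 arrays, and without replicate 2 of that group the difference was 1.61. Wnt9a was not above background at E10.5, and reached -4.05 and -4.19 in E13.5 females and -6.30 and -5.46 in E13.5 males, where 1 of 2 arrays was above background. The mean over both sexes was at least 1.76-fold higher (adjusted p = 0.00293), and the listed values of E13.5 males overlap those of E10.5. Wnt3 was not above background at E10.5 either, and its mean difference (at least 2.27-fold, adjusted p = 0.00209) came mainly from males, whose values are given below. The ligand antagonist Sfrp2 was at -6.49 to -5.72 over the 4 E10.5 arrays and at -3.48 and -3.42 in E13.5 females and -2.82 and -2.24 in E13.5 males, a difference of 3.04 ± 0.47 (adjusted p = 0.000171). Tcf7 rose by 2.11 ± 0.47 (adjusted p = 0.00271), from -6.74 to -4.55 at E10.5 to -3.85 to -2.73 at E13.5. Lef1, the other nuclear partner, was high throughout: -2.32 and -2.58 in E10.5 females, -2.42 and -2.51 in E10.5 males, -2.22 and -3.16 in E13.5 females and -3.01 and -2.86 in E13.5 males, and it was not called.

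Nkd1, a feedback inhibitor that binds Dishevelled, moved apart between the sexes. E10.5 females were at -4.53 and -4.32 and E10.5 males at -4.15 and -4.64. The male value of -4.15 was not above background, so the male change rests partly on a value that was not measured. At E13.5 the females were at -1.78 and -1.86 and the males at -4.50 and -4.37. The rise differed between the sexes by -2.65 ± 0.44 (male minus female, limma adjusted p = 0.00398), so the mean over both sexes (1.28 ± 0.22) describes neither. This was the only one of 18 Wnt genes tested with a called sex by stage term, where 2.95% of all genes were called (2.00% with the male change below the female one), and with the replicate block it was not called (adjusted p = 0.226). Wnt3 had a term of the opposite sign, 3.26 ± 0.95, which did not pass (adjusted p = 0.0787). The fixed lists of other pathway genes held 63 names, of which 49 had a probe. The same filter applied to them, so their counts, here and below, include genes that passed through 1 side alone. Of 29 tested between E10.5 and E13.5, 7 rose and 2 fell, among them the cell cycle gene Ccnd1 (2.01 ± 0.27, adjusted p = 5.79e-05) and Kremen2, a Dkk receptor (at least 2.29-fold). The polarity gene Vangl1 fell by 3.49 on the log2 scale (SE 0.33, adjusted p = 2.31e-06).

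At E13.5, males and females differed in 3 of 18 Wnt genes tested. Nkd1 and Fzd3 were lower in males, and Wnt3 was higher in males, where 4.75% of all genes were higher and 7.85% lower. Of the 18, 1 (Wnt3) passed the filter through males alone and 6 through females alone, of which 1 (Fzd3) was called. The other 11 were measured on both sides, and 1 of them (Nkd1) was called. The median difference was -0.13 over the Wnt genes and -0.11 over all genes. Nkd1 differed by -2.62 ± 0.31 (adjusted p = 5.49e-05, or 0.0293 with the replicate block), by -2.73 and -2.51 on the 2 slides that each held 1 male and 1 female array. Wnt3 was at -2.76 and -2.63 in males and at -6.31 and -6.55 in females, where 1 of 2 arrays was above background, a difference of 3.74 ± 0.67 (adjusted p = 0.00183, or 0.0527 with the replicate block). Within the slides the differences were 3.55 and 3.92. Fzd3 was at -5.02 and -5.84 in males and -3.68 and -3.58 in females (-1.80 ± 0.45, adjusted p = 0.016, or 0.171 with the block), a call also lost without either female array or replicate 2 of the males. With slide as a fixed block none of the 3 was called (adjusted p = 0.0773 for Nkd1 and Wnt3, 0.194 for Fzd3; 4 of the genes tested had an unadjusted p under 0.05). That run called 12 of all 11486 genes tested, against 1448 in the main run. Fzd3 was above background on 1 of 2 male arrays. With the replicate block 1 gene, Nkd1, remained called, and the deposited value table, which centres arrays on their median, called 1 higher and 5 lower. Sp5, Lef1, Tcf7, Lrp5, Fzd2, Fzd7 and Fzd10 were among the 15 not called. Of 28 other pathway genes, 1 was higher and 3 lower in males, with the homeobox gene Cdx2 at least 19.7-fold lower (adjusted p = 0.00985) and Ccnd1 changed by -3.50 ± 0.39 (adjusted p = 3.38e-05).

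The sexed groups also differed in genes of the testis's supporting cells. Of 8 Sertoli cell markers on the array, 6 were above background on both arrays of E13.5 males and 2 of E13.5 females, and the log2 of their summed signal was 1.04 and -0.18 in males against -3.84 and -3.83 in females. At E17.5 the numbers were 7 and 1, and the sums 2.98 and 1.92 against -2.89 and -2.10. Gata4 was above background on no array of E13.5 males, and Sox9 and Dhh were among 5 markers on no array of E17.5 females. The sum of 4 Leydig cell markers at E17.5 was -0.53 and -1.40 in males (3 of 4 measured) against -4.10 and -3.29 in females (1 of 4). Of 5 pregranulosa markers, 3 were measured on both arrays of E13.5 females, 1 of E13.5 males and 4 of each E17.5 group, with sums of -2.40 and -1.43 in E17.5 females and -1.22 and -1.19 in E17.5 males, and Foxl2, the defining gene, was above background in no group. Wnt6 moved with the marker sum within the male groups: it was higher on replicate 1, as the sum was, at both ages. Wnt3 was higher on replicate 2 in both. The part of these cells in the sex differences was not tested.

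**Figure D2:**
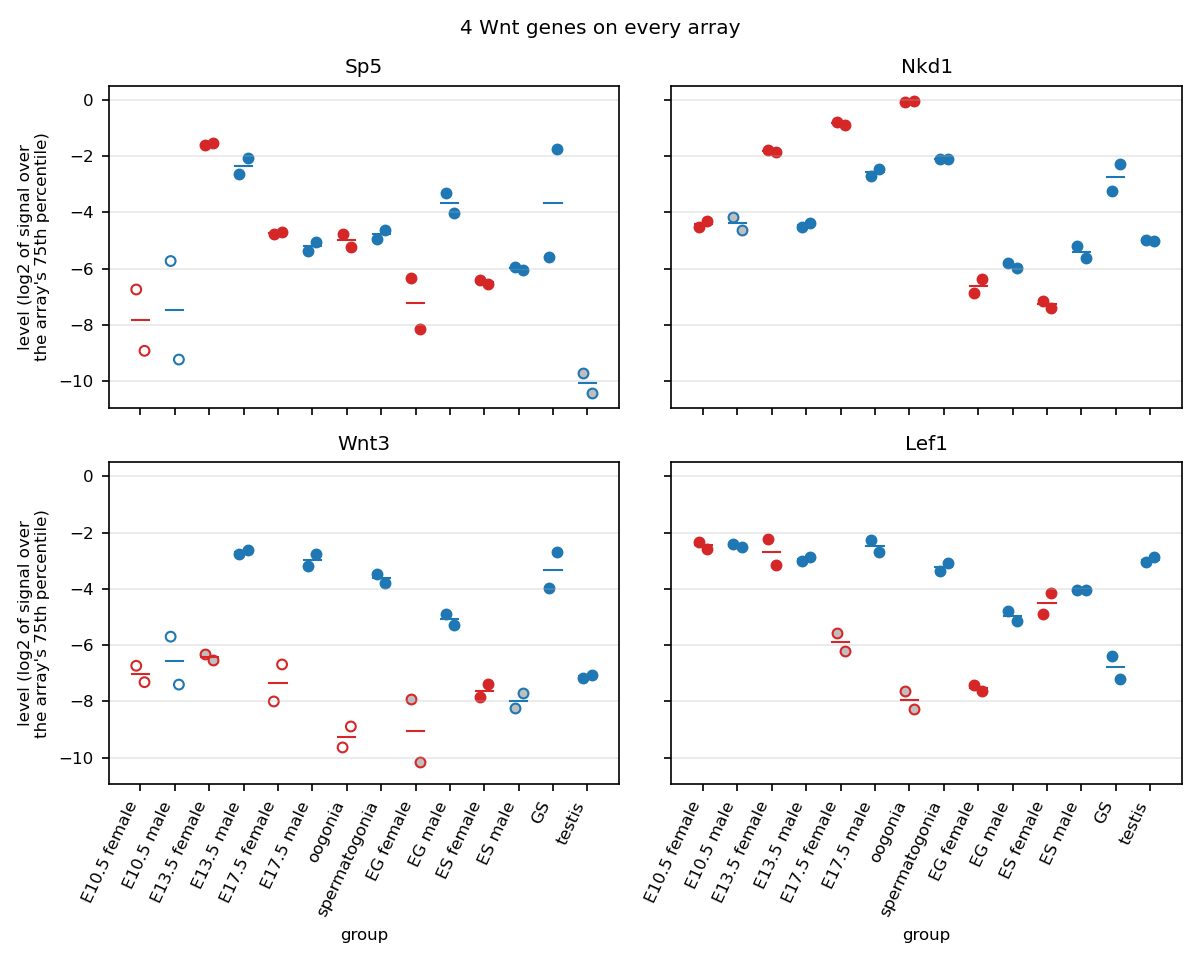
Level on every array (log2 of signal over the array's 75th percentile) of Sp5, Nkd1, Wnt3 and Lef1 in 14 groups, female groups red and male groups blue; lines are means of 2 arrays, grey fill marks 1 of 2 arrays well above background and open points none. Nkd1 is higher and Wnt3 lower in female than in male germ cells from E13.5 on, and Lef1 is low in E17.5 females and oogonia.

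From E13.5 to E17.5, the receptor genes Fzd2, Fzd7 and Fzd10 and the antagonist Sfrp2 fell in each sex. In females, 6 of 17 Wnt genes tested fell and 1 rose, where 15.3% of all genes fell and 17.8% rose, and 0 rose and 6 fell by the percentile over all probes or the deposited table. Over all genes, those runs called 1540 higher and 2025 lower, and 480 higher and 937 lower. Of these 17, 8 passed through E13.5 alone (5 of them called lower) and 9 were measured on both sides. In males, 5 of 21 fell and 5 rose, where 13.1% of all genes fell and 29.0% rose. Of these 21, 9 passed through E17.5 alone (4 called higher), 2 through E13.5 alone (both called lower) and 10 on both sides. The male split was 7 higher and 4 lower with quantile normalization and 3 higher and 5 lower with the percentile taken over all probes. Over all genes, these runs called 3317 higher and 2520 lower, and 2261 higher and 2770 lower. Normexp correction left 1 female and 0 male calls (3 at an unadjusted p under 0.05 in males), and a fit of the 4 male arrays alone left 0 (14 unadjusted). That fit called 0 of all 12907 genes tested, and normexp 1905 in males, against 5423 in the main run. With slide as a fixed block the calls for Fzd10 (adjusted p = 0.0904 in females and 0.0596 in males), Fzd2 (0.0683 and 0.115), Nkd1 (0.181 and 0.0504) and, in males, Fzd3 (0.0995) and Wnt10a (0.0724) were lost. The summed level of 5 blood and endothelium markers was -1.22 and -5.85 in E13.5 and 4.06 and 1.5 in E17.5 females, with 1 and then 2 of the 5 measured on both arrays. In males it was -0.28 and -2.08 and then 1.93 and 0.17, again with 1 and 2 measured, Cdh5 and Ptprc being below background in all 4 groups. Its part in the stage differences was not tested.

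Fzd7, a receptor of pluripotent cells, was at -4.05 and -3.53 in E13.5 females and not above background at E17.5, at least 6.02-fold lower (adjusted p = 0.000263). In males it went from -4.02 and -3.28 to below background, at least 6.74-fold lower (adjusted p = 0.000847). Fzd10 went from -4.78 and -5.32 in E13.5 females, and from -4.92 and -3.83 in E13.5 males, to below background in both, at least 2.63-fold lower in females (adjusted p = 0.0013) and 4.08-fold lower in males (adjusted p = 0.000538). Fzd2 also fell: females went from -3.41 and -3.92 to -6.20 and -5.66, 1 of 2 arrays being above background (-2.27 ± 0.36, adjusted p = 0.000214), and males from -3.17 and -3.27 to -4.45 and -4.86 (-1.44 ± 0.36, adjusted p = 0.00519). The difference between the sexes in the Fzd2 change was 0.83 ± 0.51 and was not called (adjusted p = 0.251). The male Fzd2 call was lost without replicate 2 of E17.5 males. Fzd3, the other frizzled gene tested, rose in males from -5.02 and -5.84 to -4.07 and -3.45 (1.67 ± 0.45, adjusted p = 0.00807, or 0.079 with the replicate block), a call also lost without replicate 2 of either male group. In females it went from -3.68 and -3.58 to -4.73 and -4.50, which was not called.

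The antagonist Sfrp2 fell in both sexes. In females it went from -3.48 and -3.42 to below background, at least 7.96-fold lower (adjusted p = 2.51e-05), and in males from -2.82 and -2.24 to -5.96 and -5.50 (-3.20 ± 0.67, adjusted p = 0.00142). Sp5 also fell in both, to -4.78 and -4.71 in E17.5 females (-3.18 ± 1.09, adjusted p = 0.0337) and -5.37 and -5.05 in E17.5 males (-2.86 ± 1.09, adjusted p = 0.0449). With the replicate block neither Sp5 call held (adjusted p = 0.0888 and 0.0956), and each was also lost when any 1 of its 4 arrays was left out. The E17.5 values lay below all 4 E13.5 values by more than 2 log2 units, and above background, unlike at E10.5.

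Lef1 separated the sexes at this step. In females it fell from -2.22 and -3.16 to -5.58 and -6.20, where 1 of 2 arrays was above background (-3.20 ± 0.38, adjusted p = 1.41e-05, and called in every alternative run). In males it was at -3.01 and -2.86 and then at -2.27 and -2.70, and was not called. The difference between the sexes in the change was 3.64 ± 0.54 (adjusted p = 0.000149), and it was called with the replicate block (adjusted p = 0.0132) and with slide as a fixed block (adjusted p = 0.0374) but not with normexp correction (adjusted p = 0.0802). Of 23 Wnt genes tested for such a difference, 4 were called, all with the male change above the female one, where 27.4% of all genes were called and 17.1% were called in that direction, a share close to that of the Wnt genes. Normexp correction called 0 (1 at an unadjusted p under 0.05), and 935 of all 13913 genes tested. Wnt11 had a term of 3.76 ± 0.87 (adjusted p = 0.00439), Wnt10a of 2.74 ± 0.92 (adjusted p = 0.0365) and Fzd3 of 2.65 ± 0.64 (adjusted p = 0.0061). Wnt11 and Wnt10a passed the filter through E17.5 males alone. Their terms rest largely on values that were not above background and are no measure of size. With the replicate block Wnt11, Wnt10a and Fzd3 were not called (adjusted p = 0.062, 0.146 and 0.0862), and Lef1 alone was. Wnt10a was also lost when any of 7 of the 8 arrays was left out, all but replicate 2 of E13.5 males. Nkd1 rose in both sexes, to -0.78 and -0.88 in females (0.98 ± 0.31, adjusted p = 0.0223, or 0.0846 with the replicate block) and to -2.69 and -2.46 in males (1.86 ± 0.31, adjusted p = 0.000228). The female call was lost without any 1 of its 4 arrays.

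In males the ligands Wnt11, Wnt10a and Wnt5a were called higher, each of which passed the filter through E17.5 males alone. Wnt11, a ligand known for non-canonical signalling, was not above background in E13.5 males and reached -4.06 and -3.83 at E17.5, at least 3.83-fold higher (adjusted p = 0.000699). Wnt10a went from below background to -3.34 and -3.62, at least 5.28-fold higher (adjusted p = 0.00284), and lost its call without replicate 1 of E13.5 males. Wnt5a went from below background to -4.60 and -4.36, at least 2.65-fold higher (adjusted p = 0.0326), a call lost without any 1 of its 4 arrays. No ligand was called in females, of 3 tested (Wnt4, Wnt6 and Wnt9a). Of 33 other pathway genes tested in males, 10 rose and 1 fell, led by the secreted Dkkl1 (at least 12.9-fold), the Nkd1 relative Nkd2 (at least 11.0-fold) and Celsr3, a planar polarity cadherin (at least 5.14-fold). In females, 2 of 29 rose and 7 fell: Cdx2 was at least 29.0-fold lower and Ccnd1 changed by -3.53 ± 0.39, while Rspo2, a secreted enhancer of Wnt signalling, was at least 9.62-fold higher.

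At E17.5, 11 of 20 Wnt genes tested were higher in males and 2 lower, where 30.0% of all genes were higher and 20.1% lower. Of the 20, 11 passed the filter through males alone (9 called higher), 1 through females alone (called lower) and 8 on both sides, of which Wnt6 and Sfrp1 were called higher and Nkd1 lower. With leaving out single arrays the count lay between 7 and 10, lowest without replicate 1 of E17.5 females or of E17.5 males (7 each), and it was 5 with normexp correction. The differences of all 13 called genes ran the same way on both slides, but with slide as a fixed block Fzd2 (adjusted p = 0.0525), Lrp6 (0.0695) and Wnt6 (0.0906) were not called.

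Wnt3 was at -3.18 and -2.77 in E17.5 males and not above background in females, at least 9.88-fold higher (log2 4.37 ± 0.67, adjusted p = 7.28e-05, or 0.00605 with the replicate block). Wnt6 stood at -0.06 and -1.12 in males and -4.37 and -3.20 in females (3.20 ± 0.90, adjusted p = 0.00797, or 0.0703 with the block). Wnt6 lost its call without replicate 1 of either sex. Wnt10a was at -7.11 and -6.72 in females (3.43 ± 0.65 higher in males, adjusted p = 0.00046) and Wnt11 at -7.66 and -6.87 (3.32 ± 0.61, adjusted p = 0.000365), each above background on 1 of 2 female arrays. Wnt5a and Wnt3a, which were below background in females, were at least 3.89-fold (adjusted p = 0.0213) and 2.16-fold (adjusted p = 0.0367) higher in males. Wnt3a was at -5.60 and -5.06 in males. Its call was lost with the replicate block (adjusted p = 0.112) and without any 1 of the 4 arrays, and that of Wnt5a without 3 of the 4, all but replicate 2 of E17.5 females.

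Among the antagonists, Sfrp1 was at -0.95 and -0.31 in males and -4.23 and -2.87 in females (2.92 ± 0.93, adjusted p = 0.0166, lost without replicate 1 of the females or replicate 2 of the males). Its other 2 probes differed in the same direction. Sfrp2 was at least 1.63-fold higher in males (adjusted p = 0.00166). Sfrp4, at -4.07 and -4.89 in males and below background in females, was at least 3.89-fold higher (adjusted p = 0.0393), a call lost without any 1 of the 4 arrays. The receptor Fzd2, above background on 1 of 2 female arrays, was higher in males by 1.27 ± 0.36 (adjusted p = 0.00855, lost without replicate 1 of either sex). The coreceptor Lrp6 was at -5.34 and -4.15 in females and below background in males, at least 2.93-fold lower (adjusted p = 0.00976, lost without replicate 2 of the females or replicate 1 of the males). Lef1, above background on 1 of 2 female arrays, differed by 3.40 ± 0.38 (adjusted p = 4.41e-06) and Nkd1 by -1.74 ± 0.31 (adjusted p = 0.000257). Lef1, Nkd1 and Wnt3 kept their calls in every alternative run, normexp correction and the fixed slide block included (adjusted p at most 0.0098, 0.0222 and 0.0185). Of 33 other pathway genes tested, 14 were higher in males and 0 lower, among them T (Brachyury), a classical beta-catenin target (at least 29.7-fold), Dkkl1 (at least 18.9-fold), Kremen2 (4.65 ± 0.59) and the polarity gene Celsr1 (4.15 ± 0.56). T and Dkkl1 were not above background in females, so they passed the filter through males alone.

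**Figure D3:**
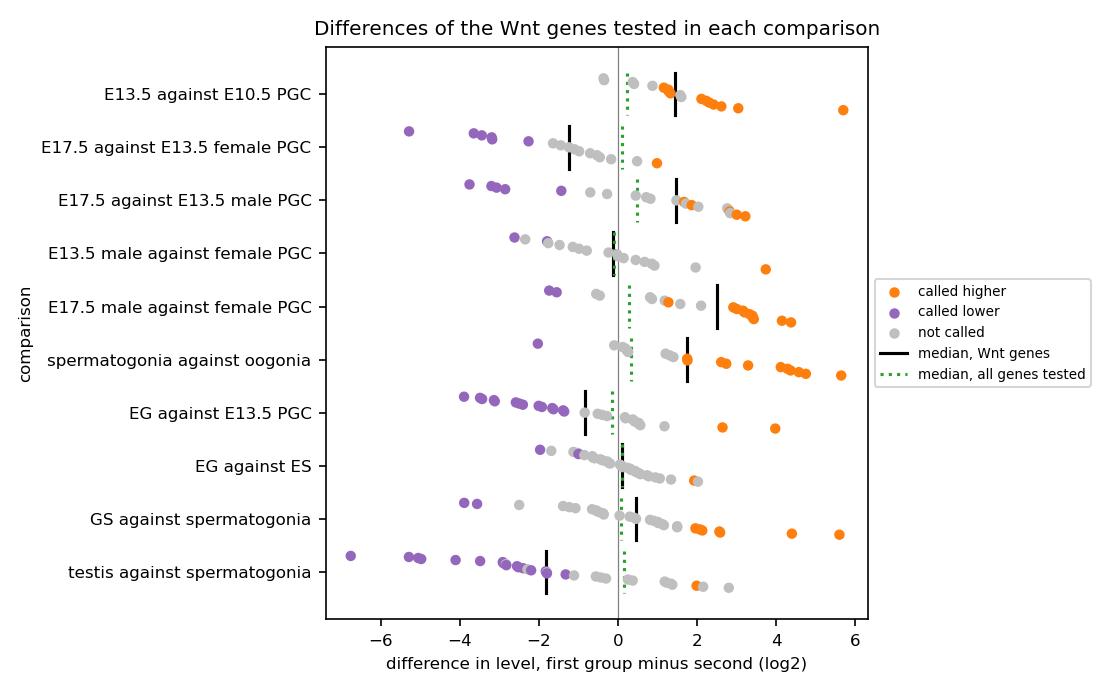
Difference in level (log2, first group minus second) of every Wnt gene tested in the 10 comparisons, 1 point a gene, orange called higher, purple called lower and grey not called; black lines are the medians of these genes and green dotted lines those of all genes tested. Orange points number 11 of 20 for E17.5 males against females, where 11 genes passed the filter through males alone, and purple points 16 of 32 for testis against spermatogonia.

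Between spermatogonia and oogonia, 11 of 20 Wnt genes tested were higher in spermatogonia and 1, Nkd1, was lower, where 31.4% of all genes were higher and 16.4% lower. Of the 20, 14 were measured on both sides (7 called higher, 1 lower) and 4 passed through spermatogonia alone, all called. The median was 1.75 against 0.33 over all genes. Each group lay on a slide of its own, so slide and cell type cannot be told apart, and with slide as a random block 5 genes were called (Wnt3, Lef1, Nkd1, Wnt10a and Fzd2). Wnt3 was at -3.46 and -3.79 in spermatogonia and below background in oogonia, at least 29.6-fold higher (adjusted p = 5.75e-06). Lef1 was at -3.36 and -3.07 in spermatogonia and -7.65 and -8.28 in oogonia, where 1 of 2 arrays was above background (4.75 ± 0.38, adjusted p = 1.25e-07). Nkd1 reached its highest level anywhere in oogonia, at -0.09 and -0.03, against -2.09 on both spermatogonia arrays (-2.03 ± 0.31, adjusted p = 6.15e-05). Wnt10a was at -4.18 and -3.88 against -8.56 and -7.74 (4.12 ± 0.65, adjusted p = 9.08e-05). These 4 calls held in every alternative run.

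Further ligands followed. Wnt5a was at -3.95 and -4.32 in spermatogonia and -6.62 and -10.38 in oogonia, 1 of 2 above background (4.36 ± 1.06, adjusted p = 0.00298), and without replicate 2 of the oogonia it was 2.48 and no longer called. Wnt9a was at -3.09 and -3.32 against -5.75 and -6.14 (2.74 ± 0.73, adjusted p = 0.00552). Wnt11 was at -5.44 and -5.20 against -6.88 and -7.25 (1.75 ± 0.61, adjusted p = 0.0271), a call lost without any 1 of the 4 arrays. Wnt6, which was higher in E17.5 males than females, was at -4.11 and -3.90 in spermatogonia and -4.41 and -3.98 in oogonia and was not called (0.19 ± 0.90). Among receptors, Fzd2 was at -4.83 and -4.14 against -6.72 and -7.47 (2.61 ± 0.36, adjusted p = 2.71e-05) and Fzd3 at -4.08 and -4.40 against -6.14 and -5.85 (1.75 ± 0.45, adjusted p = 0.00455). Sfrp2 was at -3.80 and -3.93 against -7.22 and -7.09 (3.29 ± 0.67, adjusted p = 0.000782), and Sfrp4 was at -6.01 and -5.08 against below background, at least 7.81-fold higher (adjusted p = 0.0257, lost without any 1 of the 4 arrays). Some of these calls depended on the scaling. With quantile normalization Fzd2 (adjusted p = 0.156), Fzd3 (0.376), Sfrp2 (0.0523) and Wnt11 (0.588) were not called. With the deposited values Fzd2 (0.151), Fzd3 (0.635), Wnt9a (0.0623) and Wnt11 (0.556) were not called. The percentile over all probes lost the calls for Fzd3 and Wnt11.

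The 2 oogonia arrays disagreed for some of these genes. Sfrp1 was at 0.19 and 0.17 in spermatogonia and at -1.92 and -6.30 in oogonia (4.29 ± 0.93, adjusted p = 0.00131, and 6.47 or 2.10 without replicate 1 or 2 of the oogonia). The log2 of the summed signal of 9 stroma and feeder markers was 0.54 and -2.04 on the same oogonia arrays, and 1.65 and 1.42 in spermatogonia. Of these markers 6 were measured on both arrays of oogonia and 7 of spermatogonia, and Thy1 was below background in both groups. The blood and endothelium sum was 1.94 and -2.83 in oogonia (1 of 5 markers measured on both arrays) and 0.54 and 0.34 in spermatogonia (3 of 5), with Cdh5 below background in both. Wnt5a and Sfrp1 were thus higher on the oogonia array on which the stromal and blood sums were higher. The Sertoli sum was -2.47 and -2.88 in oogonia and -0.29 and -0.44 in spermatogonia. The part of such cells in these results was not tested. Of 38 other pathway genes, 19 were higher in spermatogonia and 1 lower, with T at least 110.0-fold, Dkkl1 at least 69.1-fold and Celsr3 at least 29.7-fold higher. T, Dkkl1 and Celsr3 were not above background in oogonia, so they passed the filter through spermatogonia alone.

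EG cells had lower levels of the nuclear genes and of several ligands than E13.5 PGC. Of 29 Wnt genes tested (means over both sexes), 14 were lower and 2 higher, where 23.0% of all genes were lower and 17.9% higher. Of the 29, 18 were measured on both sides (13 called lower and 1 higher) and 11 passed through EG cells alone. Of these 11, 1 was called higher (Sfrp4) and 1 lower (Wnt10a). The median was -0.84 against -0.16 over all genes. The split moved with the scaling: quantile normalization called 8 lower and 6 higher, and 8 were lower and 3 higher with the deposited values, while normexp correction called 24 lower and 0 higher. Over all 18057 genes tested, the same runs called 2854 lower and 4884 higher, 1113 and 4160, and 12383 and 1462. All 5 nuclear factors and targets were lower. Some called genes were above background on part of the 4 E13.5 arrays: 3 for Axin2, Fzd3, Lrp6, Wnt3 and Wnt4, 2 for Dkk3 and 1 for Wnt10a. EG and PGC arrays shared no slide and no strain, so slide, strain and cell type cannot be told apart. With slide as a random block 4 genes were called: Nkd1, Lef1, Fzd3 and Fzd2. The E13.5 arrays are those of the comparisons above, so the comparisons are not independent, and the spermatogonia arrays are likewise shared by 3 comparisons (with oogonia, GS cells and testis).

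Nkd1 was at -6.85 and -6.36 in EG females and -5.79 and -5.98 in EG males, below all 4 E13.5 arrays (-3.12 ± 0.22, adjusted p = 2.79e-08). Lef1 was at -7.43 and -7.63 in EG females and -4.80 and -5.15 in EG males (-3.44 ± 0.27, adjusted p = 8.6e-08), so the 2 EG sexes lay far apart. Sp5 was at -6.31 and -8.13 in EG females and -3.31 and -4.04 in EG males (-3.49 ± 0.77, adjusted p = 0.00166). Axin2, the most widely used readout of the pathway, was at -8.62 and -8.73 in EG females and -7.87 and -8.28 in EG males. In PGC it had been at -5.46 and -5.00 in E13.5 females and -9.02 and -4.40 in E13.5 males (-2.41 ± 0.71, adjusted p = 0.0122). The 2 E13.5 male arrays of Axin2 disagreed, 1 being above background, and without replicate 2 of E13.5 males the difference was -1.25. Axin2 was called in no comparison among PGC. Tcf7 was at -5.39 and -4.62 in EG females and -4.19 and -4.42 in EG males (-1.36 ± 0.47, adjusted p = 0.0274), and lost its call without 5 of the 8 arrays: replicate 2 of either E13.5 sex, replicate 1 of either EG sex or replicate 2 of EG males.

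Among ligands, Wnt6 was at -7.30 and -5.72 in EG females and -7.87 and -7.84 in EG males, below every E13.5 array (-3.90 ± 0.64, adjusted p = 0.000131). Wnt3 was at -7.92 and -10.17 in EG females, where 1 of 2 arrays was above background, and -4.89 and -5.27 in EG males (-2.50 ± 0.48, adjusted p = 0.000499). The male arrays were thus the higher ones in both E13.5 PGC and EG cells, which was not tested in the EG cells. Wnt4 was at -8.08 and -6.16 in EG females and -7.22 and -6.59 in EG males (-2.01 ± 0.69, adjusted p = 0.0286), a call lost without any of 5 arrays (both E13.5 females, replicate 2 of E13.5 males, and replicate 1 of each EG sex). Wnt10a was at -8.98 and -7.01 in EG females and -8.90 and -8.38 in EG males, overlapping the PGC arrays (-1.67 ± 0.46, adjusted p = 0.00825, lost without replicate 2 of E13.5 males or replicate 1 of EG females). Of the receptors, Fzd3 was at -8.69 and -7.76 in EG females and -7.14 and -7.09 in EG males (-3.14 ± 0.32, adjusted p = 1.33e-06) and Fzd10 at -7.73 and -7.40 in EG females and -6.90 and -7.16 in EG males (-2.59 ± 0.49, adjusted p = 0.000483). Fzd2 was at -6.48 and -6.74 in EG females and -3.92 and -4.35 in EG males (-1.93 ± 0.26, adjusted p = 1.83e-05), the EG males lying just below the E13.5 arrays. Lrp6 was at -6.36 and -5.74 in EG females and -5.93 and -5.96 in EG males (-1.39 ± 0.32, adjusted p = 0.00234). Fzd7 was at -3.75 and -3.47 in EG females and -3.52 and -3.44 in EG males, close to its E13.5 values, and was not called.

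The Sfrp and Dkk genes went both ways. Sfrp4 was at -3.66 and -3.97 in EG females and -4.94 and -5.03 in EG males and below background in PGC, at least 4.5-fold higher (adjusted p = 0.0093). Dkk3 was at -4.38 and -3.53 in EG females and -3.47 and -3.34 in EG males (2.64 ± 0.88, adjusted p = 0.0247), and lost its call without 6 of the 8 arrays, all but replicate 2 of E13.5 males and replicate 1 of EG females. Sfrp2 was at -4.13 and -5.18 in EG females and -4.46 and -4.73 in EG males (-1.64 ± 0.47, adjusted p = 0.0112, lost without replicate 2 of EG females). The stromal marker sum was 1.07 and 0.19 in EG females and 1.46 and 1.78 in EG males, against -0.38 to 0.56 over the E13.5 arrays. Of its 9 markers, 8 were measured on both arrays of EG males and 3 of EG females, against 6 of E13.5 females and 3 of E13.5 males, and Lum was below background in all 4 groups. Its part in the Sfrp4 and Dkk3 results was not tested. Of 43 other pathway genes, 10 were higher and 13 lower in EG cells, led by the pluripotency-associated target Tbx3 (at least 63.6-fold higher), Cdx2 (-4.08 ± 0.88) and the nuclear partner Tcf7l2 (-3.86 ± 0.63).

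EG and ES cells differed in 3 of 31 Wnt genes tested: Lef1 and Fzd2 were lower in EG cells and Lrp6 higher, where 1.69% of all genes were lower and 3.60% higher. Of the 31, 29 were measured on both sides, the 3 called genes among them, and 2 passed through ES cells alone. The median difference was 0.09 for the Wnt genes and for all genes. Lef1 was at -4.88 and -4.14 in ES females and -4.05 on both ES male arrays (-1.97 ± 0.27, adjusted p = 0.000821). EG males lay at -4.80 and -5.15, beside the ES females, and EG females at -7.43 and -7.63. Fzd2 was at -4.69 and -4.56 in ES females and -4.12 and -4.11 in ES males (-1.0 ± 0.26, adjusted p = 0.0328), within reach of EG males, and the call was lost without any 1 of the 8 arrays. Lrp6 was at -7.73 and -7.47 in ES females and -8.17 and -8.34 in ES males (3 of the 4 above background), below all 4 EG arrays (1.93 ± 0.32, adjusted p = 0.00302). Quantile normalization and the deposited table each called 1 gene, lower in EG cells, and with slide as a random block 0 were called (2 at an unadjusted p under 0.05). That block called 0 of all 18952 genes tested. All EG arrays were on 1 slide and all ES arrays on another, and the strains differed too, so slide, strain and cell type cannot be told apart. Wnt8a, a ligand of early embryos, was at -4.28 and -4.88 in EG males, -8.52 and -10.55 in EG females, -5.85 and -6.37 in ES females and -7.78 and -6.68 in ES males, and was not called. The 2 EG lines thus lay on either side of the ES lines. Of 43 other pathway genes, 1 was called, the receptor-clearing ligase Rnf43 (2.25 ± 0.55, adjusted p = 0.0256).

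GS cells, compared with spermatogonia, had 7 of 31 Wnt genes tested higher and 2 lower, where 11.9% of all genes were higher and 12.2% lower. With normexp correction the balance turned to 4 higher and 14 lower, and with no filter on dim probes it was 7 and 7. Over all genes these runs called 1208 higher and 12104 lower, and 2762 higher and 7271 lower. Of the 31, 18 were measured on both sides (4 called higher, 2 lower) and 13 passed through GS cells alone (3 called higher). The median was 0.45 against 0.06 over all genes. Quantile normalization and the deposited table each called 4 higher and 2 lower, and over all genes 2824 higher and 2900 lower, and 1452 and 1391. The groups shared no slide and no strain, so slide, strain and cell type cannot be told apart. With slide as a random block 1 gene (Lef1) was called. The count was 5 without either spermatogonia array.

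Dkk2, a secreted Lrp-binding modulator, was at -1.09 and -4.90 in GS cells and below background in spermatogonia, at least 13.9-fold higher (adjusted p = 0.00995). Dkk3 was at 1.66 and -1.58 against -4.33 and -4.39 (4.40 ± 1.25, adjusted p = 0.0175). Without replicate 1 of GS cells the differences were 3.69 and 2.78, and neither was called, nor was either without 1 of the spermatogonia arrays. Lrp5 was at -2.49 and -2.96 against -5.42 and -5.16 (2.56 ± 0.56, adjusted p = 0.00348). Lrp6 was at -4.68 and -4.54 against -7.05 and -6.09 (1.96 ± 0.45, adjusted p = 0.00517, lost without replicate 1 of spermatogonia), and normexp correction turned its sign (-0.65). Fzd2 was at -1.48 and -2.33 (2.58 ± 0.36, adjusted p = 0.000128). Fzd7 was at -4.54 and -4.05 against -6.40 and -6.46, 1 of 2 above background, as for Lrp6 (2.13 ± 0.60, adjusted p = 0.0167, lost without either spermatogonia array or replicate 2 of GS cells), and its sign also turned with normexp (-0.24). Sfrp2 was at -1.77 and -1.83 (2.07 ± 0.67, adjusted p = 0.0343, lost without any 1 of the 4 arrays). Lef1 was lower, at -6.37 and -7.19 (-3.57 ± 0.38, adjusted p = 1.13e-05), as was Wnt6, at -7.51 and -8.28 (-3.89 ± 0.90, adjusted p = 0.00516). Lef1 was called in every alternative run.

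The 2 GS arrays stood apart from each other. The stromal and feeder marker sum was 5.14 on replicate 1 and 2.49 on replicate 2, with all 9 markers above background, against 1.65 and 1.42 in spermatogonia. Among the genes higher on replicate 1 were Dkk2, Dkk3 and some that were not called. These included Sfrp4 (-2.43 against -9.78), Wnt5a (-1.53 against -3.76) and Wnt9a (-0.52 against -2.91). They also included Sfrp1 (-0.26 against -2.17), Fzd8 (-6.65 against -8.79) and Fzd4 (-6.39 against -7.94). Sp5 went the other way, at -5.57 and -1.74, and so did Fzd10, at -7.77 and -5.47, and Wnt3, at -3.98 and -2.68. Lrp5, Lrp6, Sfrp2 and Fzd7 lay close together on the 2 arrays. The part of feeder or stromal RNA in the Dkk2 and Dkk3 results was not tested. Of 44 other pathway genes, 3 were higher in GS cells and 10 lower, with the Wnt secretion factor Wls up by 4.07 ± 1.04 (adjusted p = 0.0097), Ccnd1 up by 2.79 ± 0.39 (adjusted p = 0.000116) and T changed by -5.47 ± 1.58 (adjusted p = 0.0191).

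**Figure D4:**
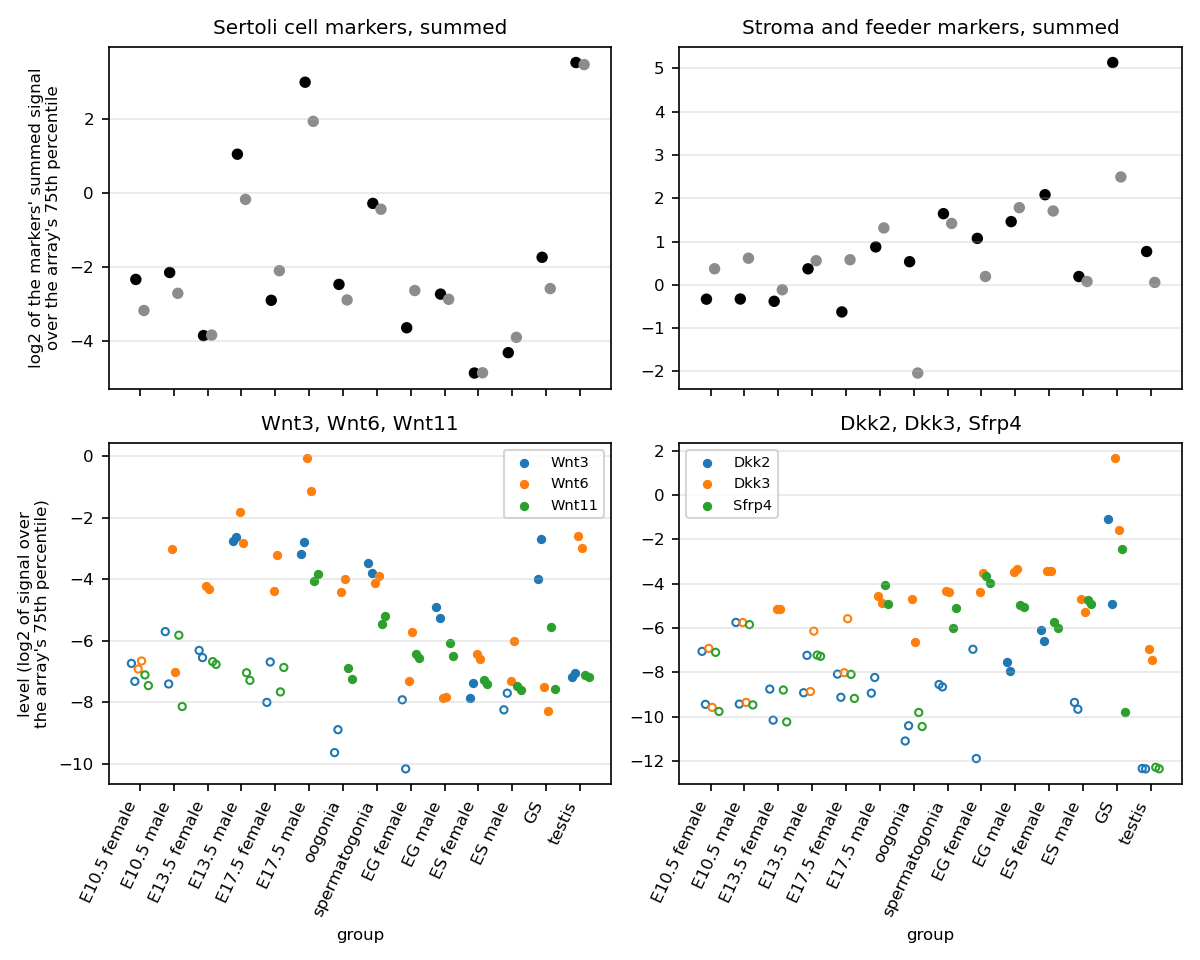
Upper panels: log2 of the summed signal of Sertoli cell markers (left) and of stroma and feeder markers (right) over the array's 75th percentile, replicate 1 black and replicate 2 grey, in 14 groups; lower panels: levels on every array of Wnt3, Wnt6 and Wnt11 (left) and of Dkk2, Dkk3 and Sfrp4 (right), open where not well above background on both arrays. The Sertoli sum is higher in male than in female PGC at E13.5 and E17.5, and the stromal sum is 5.14 and 2.49 in the 2 GS arrays, where Dkk2, Dkk3 and Sfrp4 also differ.

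Adult testis, a whole tissue of germ and somatic cells, had 16 of 32 Wnt genes tested lower than spermatogonia and 1 higher, where 19.9% of all genes were lower and 24.1% higher. The median was -1.82 against 0.15 over all genes. Of the 32, 15 were measured on both sides (10 called lower, 1 higher), 14 passed through testis alone (3 called lower) and 3 through spermatogonia alone (all called lower). Sp5 and Wnt4 were above background on 1 of 2 testis arrays, and Fzd10, Lrp6 and Wnt8b on 1 of 2 spermatogonia arrays. These last 3 are the genes called lower that passed through testis alone, so their higher side was not measured in full. The lowest flagged level was -6.41 and -7.19 on the spermatogonia arrays and -10.08 and -10.13 on the testis arrays. The log2 of the summed signal of 4 spermatid markers was 5.23 and 5.30 in testis and -2.34 and -2.47 in spermatogonia, and the part of cell composition in these results was not tested. The groups lay on different slides and came from different strains, so slide, strain and cell content cannot be told apart. With slide as a random block 4 genes were called, Nkd1, Fzd2, Sfrp2 and Tcf7. Normexp correction called 27 lower and 0 higher. Over all 22794 genes tested it called 13592 lower and 3133 higher.

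Nkd1 was at -4.96 and -5.02 in testis (-2.90 ± 0.31, adjusted p = 1.38e-06) and Tcf7 at -6.68 and -6.57 against -3.77 and -3.64 (-2.92 ± 0.66, adjusted p = 0.00168). Sp5 was at -9.70 and -10.43 against -4.93 and -4.62 (-5.29 ± 1.09, adjusted p = 0.000791). Lef1 was at -3.05 and -2.89 in testis and was not called. Of the antagonists, Sfrp1 was at -4.53 and -5.08 (-4.98 ± 0.93, adjusted p = 0.000356), Sfrp2 at -6.43 and -9.52 (-4.11 ± 0.67, adjusted p = 0.000101, and -2.57 without replicate 2 of testis) and Sfrp4 below background, at least 23.6-fold lower (adjusted p = 0.00224). Of the receptors, Fzd2 was at -6.76 and -7.01 (-2.40 ± 0.36, adjusted p = 4.88e-05) and Fzd3 at -6.34 and -6.55 (-2.20 ± 0.45, adjusted p = 0.000818). Fzd10 was at -9.47 and -9.68 against -8.53 and -7.02 (-1.80 ± 0.69, adjusted p = 0.0448) and Lrp6 at -7.77 and -8.02 against -7.05 and -6.09 (-1.33 ± 0.45, adjusted p = 0.0252). Each of these calls was lost without replicate 2 of spermatogonia (then -1.05 and -0.85) or either testis array. Lrp5 alone was higher, at -3.17 and -3.43 against -5.42 and -5.16 (1.99 ± 0.56, adjusted p = 0.00799, lost without replicate 1 of either group).

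Among ligands, Wnt4 was at -8.87 and -10.53 against -4.74 and -4.55 (-5.06 ± 0.98, adjusted p = 0.000475) and Wnt3 at -7.16 and -7.06 (-3.49 ± 0.67, adjusted p = 0.000455). Wnt9a was at -5.86 and -6.21 (-2.83 ± 0.73, adjusted p = 0.00452) and Wnt10a at -6.36 and -6.81 (-2.56 ± 0.65, adjusted p = 0.00417). Wnt11 was at -7.11 and -7.19 (-1.83 ± 0.61, adjusted p = 0.0228) and Wnt8b at -9.12 and -9.18 against -6.97 and -6.29 (-2.52 ± 0.87, adjusted p = 0.0259). Both of these calls were lost without any 1 of the 4 arrays. Several ligands that were not called ran the other way: Wnt6 was at -2.58 and -2.97 in testis, Wnt2 at -6.16 and -5.82, Wnt3a at -5.46 and -5.42 and Wnt1 at the level given above. Wnt1 and Wnt2 were below background on both spermatogonia arrays. Of 41 other pathway genes, 5 were higher and 19 lower in testis. Dkkl1, known as a sperm protein, was higher by 5.65 ± 0.52 (adjusted p = 3.5e-07), Kremen1 was at least 8.54-fold higher, and Rspo2 was at least 74.3-fold lower.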

How the data were processed

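RNA of 28 samples was hybridised to Agilent mouse arrays as Cy3-labelled cRNA made from 50 ng (Quick Amp, per the labels' protocols). Per the file headers, the authors read the arrays with Agilent Feature Extraction 10.5.1.1 (protocol GE1_105_Dec08, design build mm9), and the deposited intensity values are background-adjusted processed signals, not scaled between arrays. The deposited value table holds log2 values that equal the log2 processed signal minus the array's median, to within 0.00252. Here each array's 75th percentile over the 7227 probes well above background on all arrays was subtracted from log2 of the processed signal. The probe with a gene's highest mean level over all arrays was kept, 1417 control spots and outlier flags were left out, and 16759 of 43803 probes matched a RefSeq gene. limma 3.58.1 in R 4.3.3 fitted 14 group means to all arrays, 14 residual degrees of freedom, over genes well above background on both arrays of a compared group. Steps were tested on simulated data first.

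Normexp used median signals, since mean signals were not used here. Replicate numbers pair the PGC arrays: they mark scan days, and deviations correlated in 15 of 15 pairs of groups (0.294 to 0.794). In other groups 8 of 28 pairs correlated over 0.1. Genes measured in at least 1 group could be named, with all arrays given for calls of at least 1 log2 unit and at most 3 genes per pathway list. The genes, lists and rules were chosen with earlier results of these data known. Alternatives were scaling, background, filter, slide and replicate blocks, and leaving out arrays.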

Additional observations from a re-analysis of the deposited data

Results flagged for a closer look

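Changes with stage differed between female and male PGC in 5 results, each tested with limma as an interaction over all genes (male change minus female change). Of 18 Wnt genes tested from E10.5 to E13.5, 1 was called, where 2.95% of all genes were. Of 23 tested from E13.5 to E17.5, 4 were called, where 27.4% of all genes were. In the direction of these 4 it was 17.1%, a share close to that of the Wnt genes. Normexp correction called 0 Wnt genes at either step. From E10.5 to E13.5 the term for Nkd1 was -2.65 (adjusted p = 0.00398), where the female arrays went from -4.53 and -4.32 to -1.78 and -1.86 and the male arrays from -4.15 (not above background) and -4.64 to -4.50 and -4.37. From E13.5 to E17.5 the term was 3.64 for Lef1 (adjusted p = 0.000149), which fell in females and was not called in males. It was 3.76 for Wnt11 (adjusted p = 0.00439) and 2.74 for Wnt10a (adjusted p = 0.0365), both of which rose in males and were not tested within females. Both passed the filter through E17.5 males alone. Their terms rest largely on values that were not above background and are no measure of size. The term was 2.65 for Fzd3 (adjusted p = 0.0061), which rose in males and was not called in females. With the replicate number as a block, Lef1 alone of these 5 was called (adjusted p = 0.0132), the others having adjusted p of 0.226 (Nkd1), 0.062 (Wnt11), 0.146 (Wnt10a) and 0.0862 (Fzd3).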

How the results depend on the processing

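Counts of Wnt genes called, in the order given in the report, moved most with the background correction and the slide. Normexp left 1 of 11 from E10.5 to E13.5, 1 of 7 and 0 of 10 (3 at an unadjusted p under 0.05) from E13.5 to E17.5 in females and males, 1 of 3 and 5 of 13 between the sexes at E13.5 and E17.5, 1 of 3 for EG against ES, and 0 of the 1 and 4 interactions (2 and 1 unadjusted), but called 18 for GS cells and 27 for testis. It reversed Fzd3 (-0.22), Lrp5 (-0.23), Lrp6 (-0.37) and Wnt9a (-0.11) from E10.5 to E13.5 and Fzd7 (-0.24) and Lrp6 (-0.65) in GS cells. Over all genes, normexp called 1262 from E10.5 to E13.5 (3787 in the main run) and 13845 for EG against PGC (7383). It called 13312 for GS cells (5068) and 16725 for testis (10030). The cause was not tested. Slide as a fixed block left 0 (8 unadjusted), 4 and 5 in the stage comparisons, 0 (4 unadjusted) between the sexes at E13.5, and 0 (3 unadjusted) and 2 interactions, on 3 residual degrees of freedom. Over all genes that block left 0, 609 and 1838 in the stage comparisons, 12 between the sexes at E13.5, and 0 and 1217 interactions. Slide as a random block gave 5 at E13.5 between the sexes, 5 for spermatogonia, 4 for EG against PGC, 0 (2 unadjusted) for EG against ES, 1 for GS cells, 4 for testis and 3 for the first interaction. Over all genes it gave 3056 for spermatogonia, 2165 and 0 for EG against PGC and ES, 542 for GS cells and 5090 for testis. Fitting the compared groups alone gave 3 from E10.5 to E13.5, 0 (14 unadjusted) from E13.5 to E17.5 in males, 0 (5 unadjusted) between the sexes at E13.5, 8 for EG against ES and 0 (2 unadjusted) for the first interaction. In the same order, this fit called 276, 0, 0, 3365 and 0 of all genes tested. The deposited table gave 6 at E13.5 between the sexes, 1 for EG against ES and 0 (5 unadjusted) for the first interaction. Quantile normalization gave 1 for EG against ES, and no filter on dim probes 14 for GS cells. The replicate block gave 1 at E13.5 between the sexes and 0 (2 unadjusted) and 1 for the interactions, and moved no other count by over 1.5 times. It lost 14 calls of 106 single results, and called 0 of all genes for the first interaction. Leaving out single arrays gave 10 to 12 from E10.5 to E13.5, 5 and 6 to 9 from E13.5 to E17.5, 2 to 4 and 7 to 10 between the sexes, 9 to 13 for spermatogonia, 13 to 15 and 2 for EG cells, 5 to 10 for GS cells, 12 to 14 for testis, and 1 to 2 and 3 to 5 for the interactions, the lone array being assumed to vary like the other groups. Leaving out both E10.5 arrays of replicate 1, chosen after seeing the data, gave 11 and 1 interaction. Of all genes called, the share that was higher depended on the scaling: 66.8% from E10.5 to E13.5 became 38.3% when all probes set the percentile and 84.2% with the deposited table, and 65.7% for spermatogonia became 42.8% and 30.9%. The median of all genes moved most among scalings for spermatogonia with the deposited table (from 0.328 to -0.884), and with normexp for testis (from 0.155 to -1.57). The dim E10.5 arrays of replicate 1 limit what can be measured there, with 24.5% and 17.8% of probes well above background.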
